A study of Mus musculus with 9 samples.

Results

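The interferon response and MHC genes measured here comprised 86 genes of the 18193 genes that had a probe set annotated to a single gene, and 140 of the 45101 probe sets. They were found by symbol: the interferon-induced families Ifit, Ifitm, Ifi, Oas, Gbp, Isg and Mx, the interferon regulatory factors Irf, Stat2, the genes whose symbol starts with H2-, the peptide transporter genes Tap1 and Tap2, B2m, Ddx58, Rsad2 and Bst2. Where a gene had several probe sets, as 29 of the 86 did, the one with the highest mean over the 9 arrays stood for it. Expression was measured on Affymetrix arrays in the striatum, the forebrain region that loses neurons in Huntington disease, of 5 R6/2 and 4 wild-type mice, named by genotype and animal number. In every list of values the R6/2 mice stand in the order R62_86, R62_95, R62_105, R62_107, R62_109 and the wild-type mice in the order wt_46, wt_47, wt_49, wt_66. R6/2 mice carry a transgene of exon 1 of human HTT with an expanded CAG repeat, under the human gene's own promoter. All 9 mice were female, 12 weeks old and of a mixed C57Bl/6 and CBA background; the 4 wild-type mice and R62_86 were 85 days old and the other 4 R6/2 mice 83 days.

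Interferons are cytokines that bind receptors on nearly every cell. The receptors activate Jak kinases, which phosphorylate Stat2; in complex with Irf9 it enters the nucleus and switches on the interferon-stimulated genes, whose proteins block viral RNA, viral entry and protein synthesis. MHC class I molecules, of a heavy chain and B2m, show peptides from inside the cell to T cells, and class II molecules show peptides taken up from outside. In the healthy brain, microglia are the main cells able to show class II, and most neurons carry little class I.

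The interferon-stimulated response element is the sequence that the complex with Irf9 binds, and the gamma activation site is a second sequence of interferon-responsive promoters. Both were searched in RefSeq promoter windows (GRCm38.p6) of 250 bases before to 50 after the transcription start, on either strand: the element as GAAA, any 2 bases and GAAA (TTTC, any 2 bases and TTTC on the other strand), the site as TTCNNNGAA. The letters of the 2 motifs overlapped in 2 of the 82 windows of these genes. Of the 86 genes, 67 had a window, and 22 of these held the first motif, 32.8%, against 3.99% of 27025 genes with a window. The second motif was in 15 of them, 22.4%, against 9.55% of all. The windows of 4 genes that were higher in R6/2 are shown for where the motifs lie, with the motif letters in capitals: the response element, on the opposite strand, in Ifit3 (chr19:34583279-34583578, + strand) and Ifit1 (chr19:34640639-34640938, + strand), and the gamma activation site in Ifit2 (chr19:34550444-34550743, + strand) and Ifi35 (chr11:101448162-101448461, + strand).
Ifit3: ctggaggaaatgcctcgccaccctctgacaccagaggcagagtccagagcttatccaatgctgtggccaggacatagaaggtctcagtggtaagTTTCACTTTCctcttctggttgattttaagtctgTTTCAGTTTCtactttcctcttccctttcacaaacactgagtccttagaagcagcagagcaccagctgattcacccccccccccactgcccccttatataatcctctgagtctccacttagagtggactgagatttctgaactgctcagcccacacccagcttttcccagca
Ifit1: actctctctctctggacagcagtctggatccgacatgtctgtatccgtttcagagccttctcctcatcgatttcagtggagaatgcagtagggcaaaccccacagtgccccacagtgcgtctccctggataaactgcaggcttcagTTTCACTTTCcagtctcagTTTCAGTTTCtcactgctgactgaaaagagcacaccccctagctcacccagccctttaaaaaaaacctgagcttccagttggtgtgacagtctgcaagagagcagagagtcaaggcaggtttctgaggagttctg
Ifit2: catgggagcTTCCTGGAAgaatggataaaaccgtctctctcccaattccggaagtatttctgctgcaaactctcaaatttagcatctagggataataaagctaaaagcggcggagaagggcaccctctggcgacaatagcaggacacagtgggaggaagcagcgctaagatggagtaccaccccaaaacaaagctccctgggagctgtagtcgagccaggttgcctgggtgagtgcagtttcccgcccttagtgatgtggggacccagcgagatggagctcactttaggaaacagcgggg
Ifi35: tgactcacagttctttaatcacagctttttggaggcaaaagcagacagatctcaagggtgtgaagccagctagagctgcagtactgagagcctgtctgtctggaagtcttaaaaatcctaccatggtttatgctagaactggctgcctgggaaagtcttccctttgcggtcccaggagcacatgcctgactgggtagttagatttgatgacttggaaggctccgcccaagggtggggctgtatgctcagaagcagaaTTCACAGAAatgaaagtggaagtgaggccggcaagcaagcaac
Ifit3 held 2 copies of the element, beginning 156 and 122 bases before the start, and Ifit1 held 2 copies, 104 and 85 bases before it. Ifit2 has 2 windows, and the one shown held the motif, which began 241 bases before the start and the Ifi35 motif 7 bases after it. The Oasl2 window held neither motif. The Ifit1 window overlaps that of Ifit1bl2 (chr19:34640694-34640993, - strand), so both windows hold the same 2 elements on opposite strands. Ifit1 rose by 0.63 and Ifit1bl2 differed by 0.14 (adjusted p = 0.326). Counting genes with at least 1 window, the element was in 4 of 5 Ifit genes, in 4 of 4 Gbp genes and in 0 of 7 class II genes. Among class I genes it was in 1 of 9, B2m. By call, the element was in 2 of 5 higher genes with a window, 0 of 3 lower genes and 20 of 59 genes not called. The gamma activation site was in 2 of 5, 1 of 3 and 12 of 59. Whether the motifs had a part in the differences was not tested.

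Genotypes were compared with a linear model (limma) over all 18193 genes, with Benjamini-Hochberg adjustment, and a gene was called when its adjusted p was under 0.05. Differences are on the log2 scale, R6/2 minus wild-type. Of the 86 genes, 6 were higher and 3 lower in R6/2. These are 6.98% and 3.49%, against 9.28% and 7.57% of all genes. The groups did not overlap in 4 of 86 (4.65%), against 17.3% of all genes. All R6/2 mice were above all wild-type mice in 3 of them (9.18% of all genes) and below in 1 (8.09% of all genes). The shares called were thus below those of the array as a whole. An unadjusted p under 0.05 was found for 16 of the 86, the 9 called genes among them. The median difference was -0.01, against -0.02 over all genes, and 69 of the 86 had a mean below the median gene's. Among the dimmer 50% of genes, 6 of 69 were called (8.70%), against 7.35%; among the brighter 50%, 3 of 17 (17.6%), against 26.3%. In striatal tissue, fewer cells of a type and less RNA per cell cannot be told apart.

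The arrays carried the markers of striatum, while marker levels differed between genotypes: all 10 measured markers of spiny projection neurons were lower in R6/2, with a mean log2 level of 9.74 to 10.58 in R6/2 and 11.71 to 12.02 in wild-type. Of 12 astrocyte markers 8 were lower. The level of cortex neuron markers was 7.42 to 8.17 in R6/2 and 6.79 to 7.76 in wild-type. These 10 markers were mixed, with 3 higher and 2 lower in R6/2 and differences from -0.55 to 2.14. The level of choroid plexus markers was 5.54 to 7.48 in R6/2 and 6.01 to 8.67 in wild-type. The part of the spiny neuron and astrocyte levels in the results was not tested. Fits with the cortex or the choroid plexus level as a covariate kept fewer calls. These were Ifi35 and H2-DMa with the cortex level, and Ifit3, Oasl2, Ifi35 and H2-DMa with the choroid plexus level. Over all 18193 genes, 719 passed with the cortex level and 2065 with the choroid plexus level, against 3066 without a covariate.

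The 6 higher genes all belonged to the families of induced antiviral proteins, 48 genes in all, of which none was lower. The share of these 48 that was higher, 12.5%, was near the 9.28% of all genes, a share not matched for brightness. Of the 6 higher genes, 5 were among the dimmer 50%. There, 5 of 69 of the interferon response and MHC genes were higher (7.25%), against 2.86% of all genes. Among the brighter 50%, 1 of 17 was higher (5.88%), against 15.7%. The 25 MHC and transporter genes held no higher gene and 1 lower one (4.00%, against 7.57% of all genes). The remaining 2 lower genes were Irf8 and H2-Ke6.

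**Figure D1:**
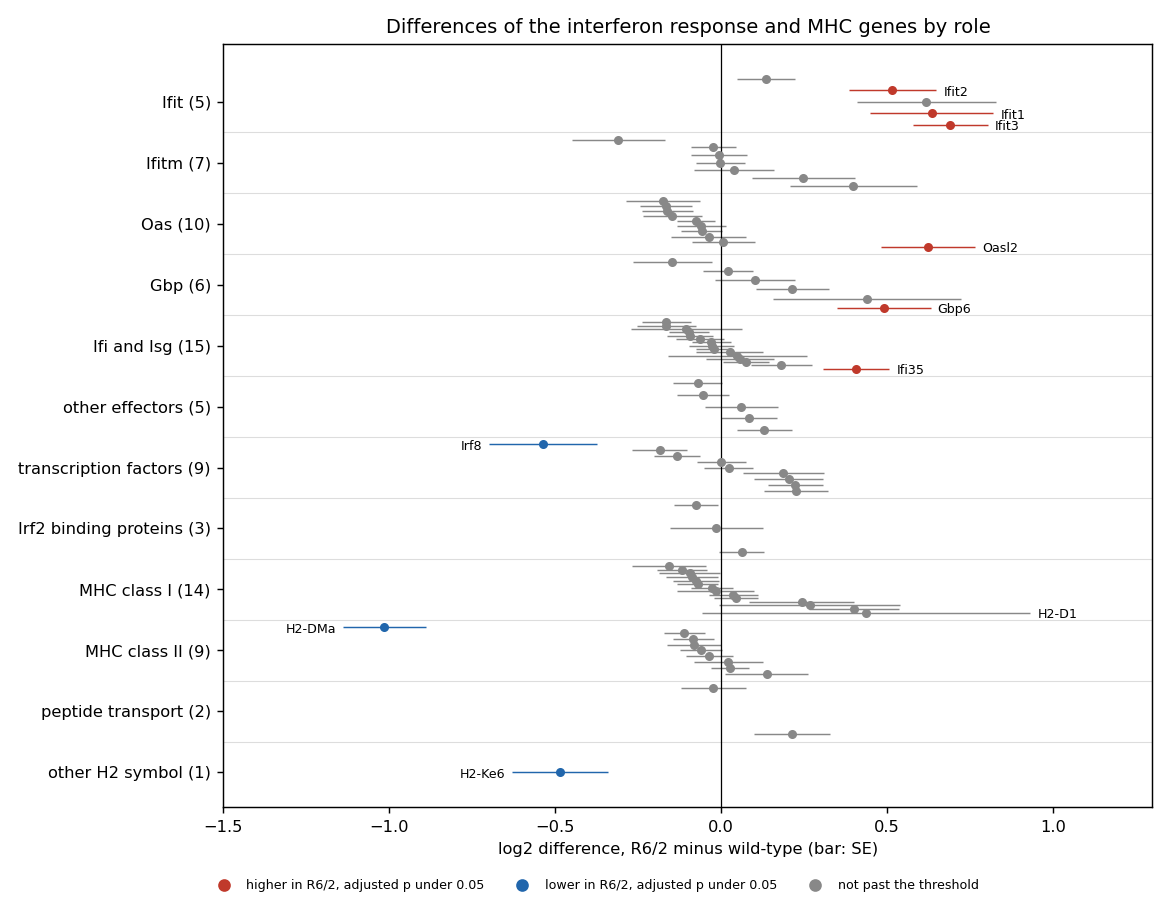
Log2 difference, R6/2 minus wild-type, for each of the 86 genes, with its standard error, grouped by role with the number of genes in parentheses. The higher genes, in red, are Ifit3, Oasl2, Ifi35, Ifit2, Gbp6 and Ifit1, and the lower ones, in blue, are H2-DMa, Irf8 and H2-Ke6.

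Among the Ifit genes, whose proteins bind foreign RNA and restrain its translation, 3 of 5 rose. Ifit3 had log2 values of 7.48, 7.47, 7.18, 7.49 and 7.33 in R6/2, against 6.86, 6.92, 6.62 and 6.39 in wild-type. The 5 R6/2 mice all lay above the 4 wild-type mice, and Ifit3 was higher by 0.69 ± 0.11 (SE; 1.61-fold, limma adjusted p = 0.00269). Ifit2 was 6.12, 5.73, 6.31, 6.11 and 6.31 in R6/2, against 5.40, 5.54, 5.90 and 5.57 in wild-type. R62_95 lay below the highest wild-type mouse, and the difference was 0.52 ± 0.13 (adjusted p = 0.0224). Ifit1 was 5.46, 5.47, 4.72, 5.07 and 4.57 in R6/2, against 4.52, 4.26, 4.62 and 4.30 in wild-type; 4 of 5 R6/2 mice exceeded every wild-type mouse. It was higher by 0.63 ± 0.19 (adjusted p = 0.0397). The related Ifit1bl1 differed by 0.62 ± 0.21 and did not pass (adjusted p = 0.0680).

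Of the other effector families, 3 genes rose. Oasl2, a gene of the Oas family, whose members make the oligoadenylates that switch on RNase L and thereby RNA decay, was 4.77, 4.99, 4.48, 5.01 and 4.38 in R6/2, against 4.10, 4.29, 3.89 and 4.13 in wild-type. The groups did not overlap, and it was higher by 0.62 ± 0.14 (adjusted p = 0.0128), while the other 9 Oas genes had differences between -0.17 and 0.01. Ifi35, which encodes an interferon-induced protein, was 6.29, 6.63, 6.18, 6.33 and 6.13 in R6/2, against 5.78, 5.92, 6.02 and 5.90 in wild-type. These did not overlap either, with a difference of 0.41 ± 0.10 (adjusted p = 0.0184); the other 2 Ifi35 probe sets differed by 0.22 and 0.10 and did not pass. Gbp6, a guanylate-binding protein of cell-autonomous defence, was 4.54, 4.99, 4.43, 4.87 and 4.46 in R6/2, against 3.98, 4.28, 4.43 and 3.98 in wild-type. It was higher by 0.49 ± 0.14 (adjusted p = 0.0360), and R62_105 equalled wt_49. Its second probe set differed by 0.19, not past the threshold.

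The rest of these families showed smaller or less even differences. Among the Gbp genes, Gbp7 had 5.51 ± 0.625 in R6/2 and 5.07 ± 0.32 in wild-type (SD, n = 5 and 4), a difference of 0.44 ± 0.28 (adjusted p = 0.324), and Gbp3 differed by 0.21 (adjusted p = 0.212). Ifit1bl1 and Gbp7 each spanned over 1 log2 unit within the R6/2 mice, as only H2-D1 and H2-K1 also did in either genotype. Among the other 14 Ifi and Isg genes, the differences ran from -0.17 (Ifi44l, adjusted p = 0.154) to 0.18 (Ifi47, adjusted p = 0.203). Ifi27, a mitochondrial protein gene, had 8.31 ± 0.42 in R6/2 and 8.26 ± 0.31 in wild-type and differed by 0.05 (adjusted p = 0.901). Oas1a, whose protein is an active synthetase, had 6.93 ± 0.11 in R6/2 and 6.99 ± 0.07 in wild-type, and Oas1c differed by -0.16 (adjusted p = 0.177).

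No Ifitm gene passed, and these membrane proteins that hinder viral entry had differences between -0.31 (Ifitm2, adjusted p = 0.160) and 0.40 (Ifitm3, adjusted p = 0.186). Mx1, Mx2, Rsad2, Bst2 and Ddx58, a sensor of viral RNA, lay between -0.07 and 0.13. Of 54 further probe sets of the 86 genes, 0 passed with adjustment over all 34945 single-gene probe sets, of which 12.2% passed. Of 25 probe sets annotated to several genes, including one of the symbols above, 0 passed. The lowest adjusted p of the 25 was 0.0668, for one shared by the class II genes H2-DMb2 and H2-DMb1, which differed by -0.23. One that Isg15, a ubiquitin-like modifier, shares with Gm9706 differed by 0.34 (adjusted p = 0.184).

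**Figure D2:**
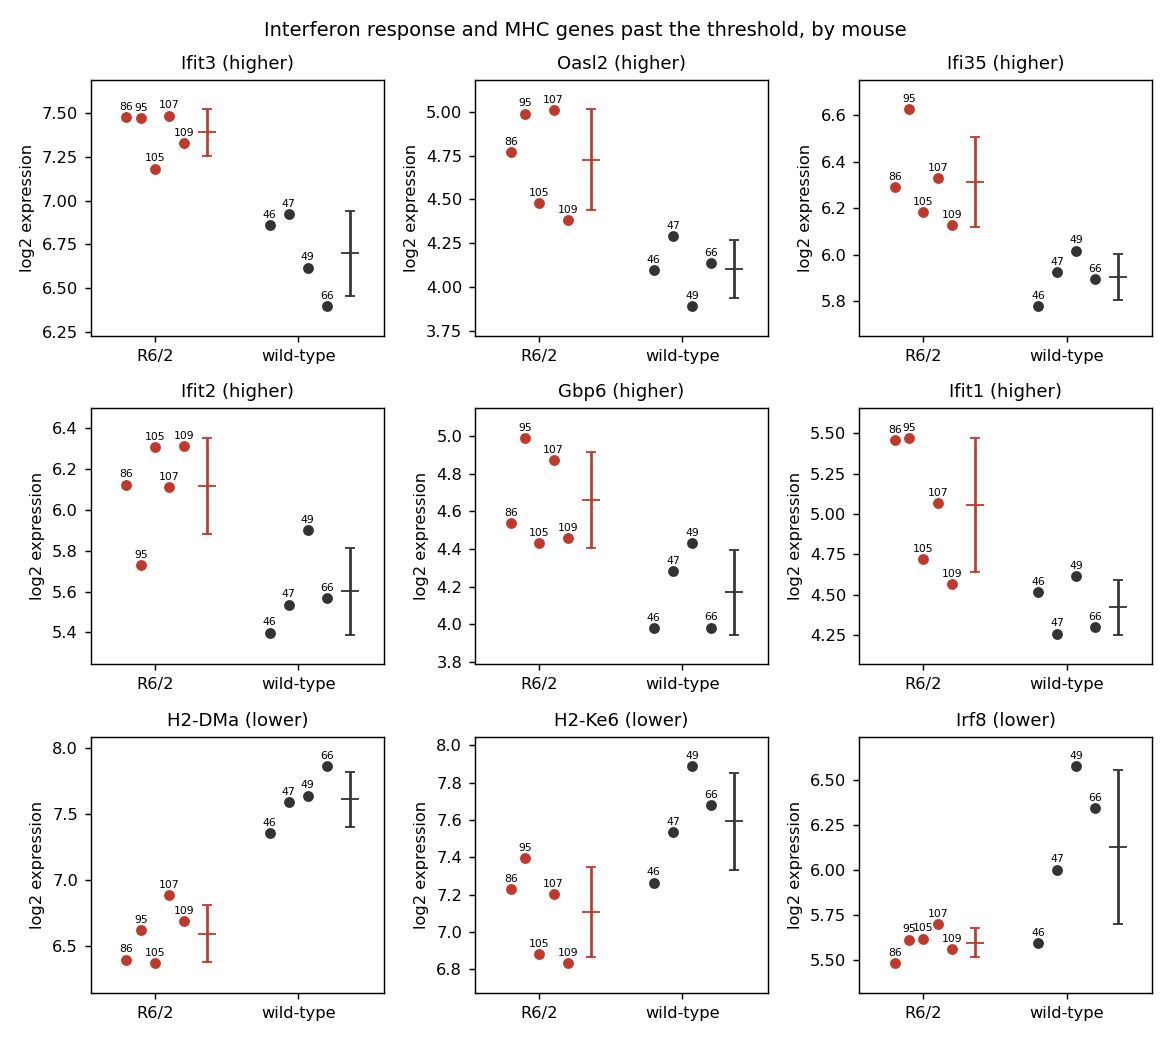
Log2 expression of the 9 genes past the threshold, R6/2 in red and wild-type in black, each point 1 mouse labelled by number, with group mean and SD as bars. Ifit3, Oasl2, Ifi35 and H2-DMa do not overlap between genotypes, and for Irf8, R62_95, R62_105 and R62_107 lie above wt_46.

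In 5 of the 6 higher genes, the 3 highest R6/2 mice were R62_86, R62_95 and R62_107; in Ifit2 they were R62_86, R62_105 and R62_109. Over these and the 12 higher pathway genes described further on, the first trio was highest in 9 of 18. This pattern was chosen after seeing the values. The mean log2 level of 11 endothelial marker genes was 6.69, 6.85 and 6.60 in those 3 mice, 6.55 and 6.50 in the other 2 R6/2 mice, and 6.25 to 6.72 in wild-type, and of these 11 genes 0 passed the test. The spiny neuron marker level was 10.36, 10.48 and 10.58 in those 3 mice, and 9.74 and 10.20 in the other 2 R6/2 mice. For cortex neuron markers the level was 7.93, 7.67 and 7.42 in those 3 mice, and 8.17 and 7.99 in the other 2. Only these 3 marker lists had levels that did not overlap between those 3 mice and the other 2 R6/2 mice. The microglia, astrocyte, leukocyte and blood, choroid plexus, and border macrophage and meninges levels overlapped. The microglia level was 7.37, 7.02 and 7.43 in those 3 mice, and 7.20 and 7.01 in the other 2. The part of marker levels in the pattern was not tested.

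Of the transcription factors, Irf8, needed for microglia and other myeloid cells, was 5.48, 5.61, 5.62, 5.70 and 5.56 in R6/2, against 5.59, 6.00, 6.58 and 6.34 in wild-type. The difference was -0.54 ± 0.16 (adjusted p = 0.0453), lower in R6/2, and wt_46 lay within the R6/2 range. A second Irf8 probe set differed by -0.24, not past the threshold. Irf9, the DNA-binding partner of Stat2, differed by 0.22 ± 0.08 (adjusted p = 0.0928), Irf7, which amplifies type I interferon, by 0.20 (adjusted p = 0.210), and Irf1 by 0.02 (adjusted p = 0.864). Irf3, which starts the interferon response to viral nucleic acid, had 7.56 ± 0.21 in R6/2 and 7.38 ± 0.20 in wild-type (SD, n = 5 and 4; adjusted p = 0.326). Stat2 differed by -0.19 (adjusted p = 0.158) and Irf2 by 0.23 (adjusted p = 0.136). None of these passed. The 3 Irf2 binding proteins, corepressors named for Irf2, differed by -0.07 (Irf2bpl) to 0.06 (Irf2bp1).

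H2-DMa encodes the alpha chain of the chaperone that loads peptide onto class II. It was 6.40, 6.63, 6.37, 6.89 and 6.69 in R6/2, against 7.35, 7.59, 7.64 and 7.86 in wild-type. All R6/2 mice lay below all wild-type mice, with a difference of -1.01 ± 0.12 (0.495-fold, adjusted p = 0.000581). Its second, dim probe set differed by -0.22 and did not pass. The other 8 class II genes had differences between -0.11 and 0.14, and none passed; H2-Ab1, the class II beta chain, averaged 3.98 ± 0.05 in R6/2 and 3.95 ± 0.05 in wild-type (SD, n = 5 and 4). H2-Ke6, a dehydrogenase gene of the MHC region and not an MHC molecule, was 7.23, 7.39, 6.88, 7.20 and 6.83 in R6/2, against 7.26, 7.54, 7.89 and 7.68 in wild-type, a difference of -0.48 ± 0.14 (adjusted p = 0.0418).

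Beside these lower genes, the microglia marker list stood lower in R6/2: 6 of its 15 measured genes were lower and none higher, among them Cd68 and Trem2. Its mean log2 level was 7.01 to 7.43 in R6/2 and 7.50 to 8.09 in wild-type, without overlap, and its median gene difference was -0.55. With that level as a covariate the differences were -0.97 for H2-DMa (adjusted p = 0.0526), -0.20 for Irf8 (adjusted p = 0.731) and -0.21 for H2-Ke6 (adjusted p = 0.673). The same covariate left Ifit3 at 0.65 (adjusted p = 0.121), and none of the 9 genes passed with it. Over all 18193 genes, 263 passed with this covariate, against 3066 without it, so the loss of calls was not particular to these genes. Because the microglia level separated the genotypes, this fit cannot tell that level and genotype apart for any of these genes. The part of the microglia level in the differences was not tested. Markers of leukocytes and blood had a level of 4.54 to 4.66 in R6/2 and 4.68 to 4.79 in wild-type, with 1 of 14 genes called, Cd4, lower. Cd4 had by far the largest difference of this list, so the gap in level rests largely on that gene. Of the 14 genes, 6 had a higher mean in R6/2, none past the threshold. Whether the number of leukocytes differed was not tested. With age in days as a covariate none of the 9 passed either, and 30 of all 18193 genes did. R62_86 was the only R6/2 mouse of wild-type age.

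The class I heavy chain genes H2-D1 and H2-K1 varied widely within each genotype. H2-D1 had 6.36, 8.22, 8.10, 8.75 and 8.25 in R6/2, against 8.10, 6.14, 7.83 and 7.93 in wild-type. R62_86 and wt_47 thus lay far below the other mice of their own genotype, and the difference of 0.44 ± 0.50 was not past the threshold (95% interval -0.66 to 1.53, adjusted p = 0.591). H2-D1 had a larger within-genotype SD than 99.8% of genes in R6/2 and 99.7% in wild-type. H2-K1, the other main heavy chain, was 6.68, 7.64, 7.55, 8.07 and 7.87 in R6/2, against 7.79, 6.71, 7.34 and 7.35 in wild-type, with the same 2 mice lowest, and differed by 0.27 ± 0.27 (adjusted p = 0.545). Another H2-D1 probe set ran the other way: R62_86 read 7.25 and wt_47 read 6.44, against 4.31 to 6.16 in the other 7 mice. Of the 34945 single-gene probe sets, 7 had both of these mice more than 0.5 below all others, and 6 of those 7 are on chromosome 17, which holds 1496 of the probe sets and the MHC: H2-D1, 2 of H2-K1, Riok2, Vps52 and Zfp871. The H2-D1 and H2-K1 probe sets are of the kind whose probes can also match related class I transcripts. These mice were picked for their H2-D1 values, so the counts are a description. C57BL/6 and CBA mice carry different MHC haplotypes; whether these mice differ in haplotype was not tested.

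**Figure D3:**
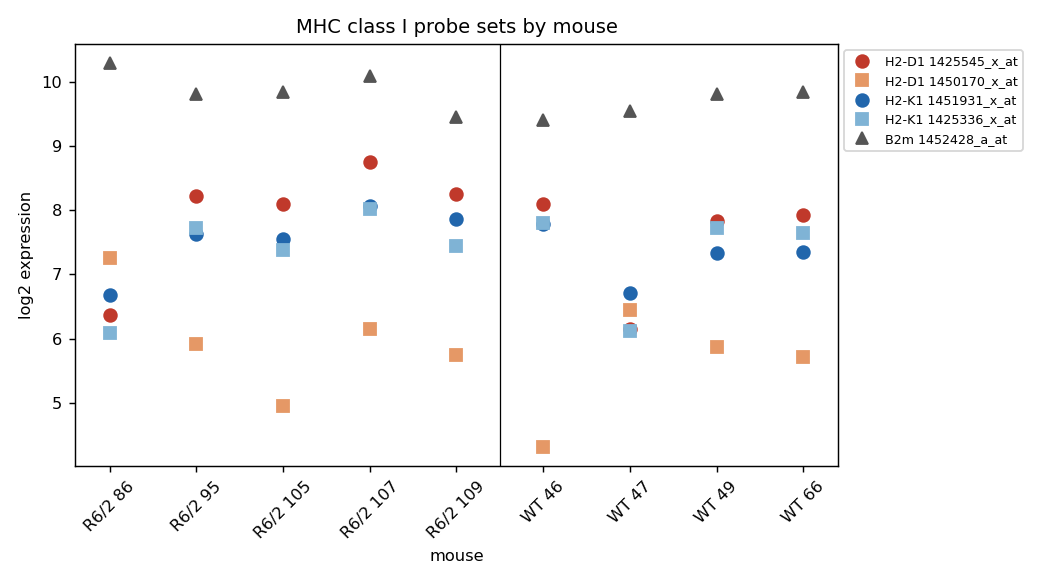
Log2 expression by mouse, R6/2 left of the line, for 2 H2-D1, 2 H2-K1 and 1 B2m probe sets. R62_86 and wt_47 lie below their genotype in 3 of them and above it in the second H2-D1 probe set.

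B2m, the light chain shared by all class I molecules, was 10.29, 9.81, 9.84, 10.09 and 9.45 in R6/2, against 9.40, 9.54, 9.82 and 9.84 in wild-type, and differed by 0.24 ± 0.16 (adjusted p = 0.327). Of the 2 mice that were low in H2-D1, R62_86 was the highest of all mice in B2m and wt_47 lay within the range of the other wild-type mice. Tap1 and Tap2, which carry peptides to class I, differed by -0.02 and 0.21, and H2-T24 by 0.40 (adjusted p = 0.0674), none past the threshold. The other class I and class I-like genes, such as H2-M3, which shows formylated peptides, and H2-T3, had differences between -0.16 (H2-M10.1) and 0.05 (H2-T18). Without R62_86 and wt_47, an alternative chosen after seeing the data, H2-D1 differed by 0.38 (adjusted p = 0.176) and H2-K1 by 0.29 (adjusted p = 0.299); the counts over all 86 genes were then 2 higher and 1 lower.

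Of 68 measured genes in 5 further pathway lists, 12 were higher (17.6%, against 9.28% of all genes) and 1 lower (1.47%, against 7.57%). The lists were chosen with earlier results of these data known, so these shares are a description. Among 17 antigen processing partners, Psmb10, an immunoproteasome subunit, was 8.35, 8.32, 8.93, 8.26 and 8.53 in R6/2, against 7.81, 7.79, 7.88 and 7.48 in wild-type, higher by 0.74 ± 0.14 (adjusted p = 0.00489). Psme1, a subunit of the proteasome activator, was 9.13, 9.08, 9.10, 9.01 and 9.001 in R6/2, against 8.31, 8.44, 8.66 and 8.35 in wild-type, higher by 0.62 ± 0.08. Both groups were separate in each gene, and the third of the list, Rfxap, of the class II promoter complex, rose by 0.23. Among 23 other induced genes, Parp12, an ADP-ribosyltransferase, was 6.58, 6.88, 6.52, 6.55 and 6.47 in R6/2, against 5.92, 6.01, 5.72 and 5.95 in wild-type, higher by 0.70 ± 0.09. Parp9 rose by 0.36, the GTPase gene Irgm1 by 0.48 and Rtp4 by 0.66; Rtp4 lay outside the rule for named genes and is given because it completes the count. Usp18, which removes ISG15 from proteins and curbs the type I receptor, was 4.49, 5.09, 4.21, 5.22 and 4.21 in R6/2, against 3.89, 4.21, 3.49 and 3.86 in wild-type. It rose by 0.78 ± 0.23 (adjusted p = 0.0384). Ptpn2, a phosphatase of Jak kinases, rose by 0.30 but turned to -0.0746 with the mean of its probe sets (adjusted p = 0.482), and Cish, an inhibitor of cytokine signalling, fell by 0.30. Ifngr1 and Jak2, of the interferon gamma receptor and its kinases, differed by -0.18 (adjusted p = 0.112) and -0.24 (adjusted p = 0.105), and the DNA sensor Tlr9 by -0.25 (adjusted p = 0.0725), none past the threshold. Of 8 receptors and kinases, Jak1 rose by 0.29, and of 12 sensors and adaptors, Myd88, the adaptor of Toll-like receptors, rose by 0.46 and Ifih1, a sensor of double-stranded RNA, by 0.35.

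**Figure D4:**
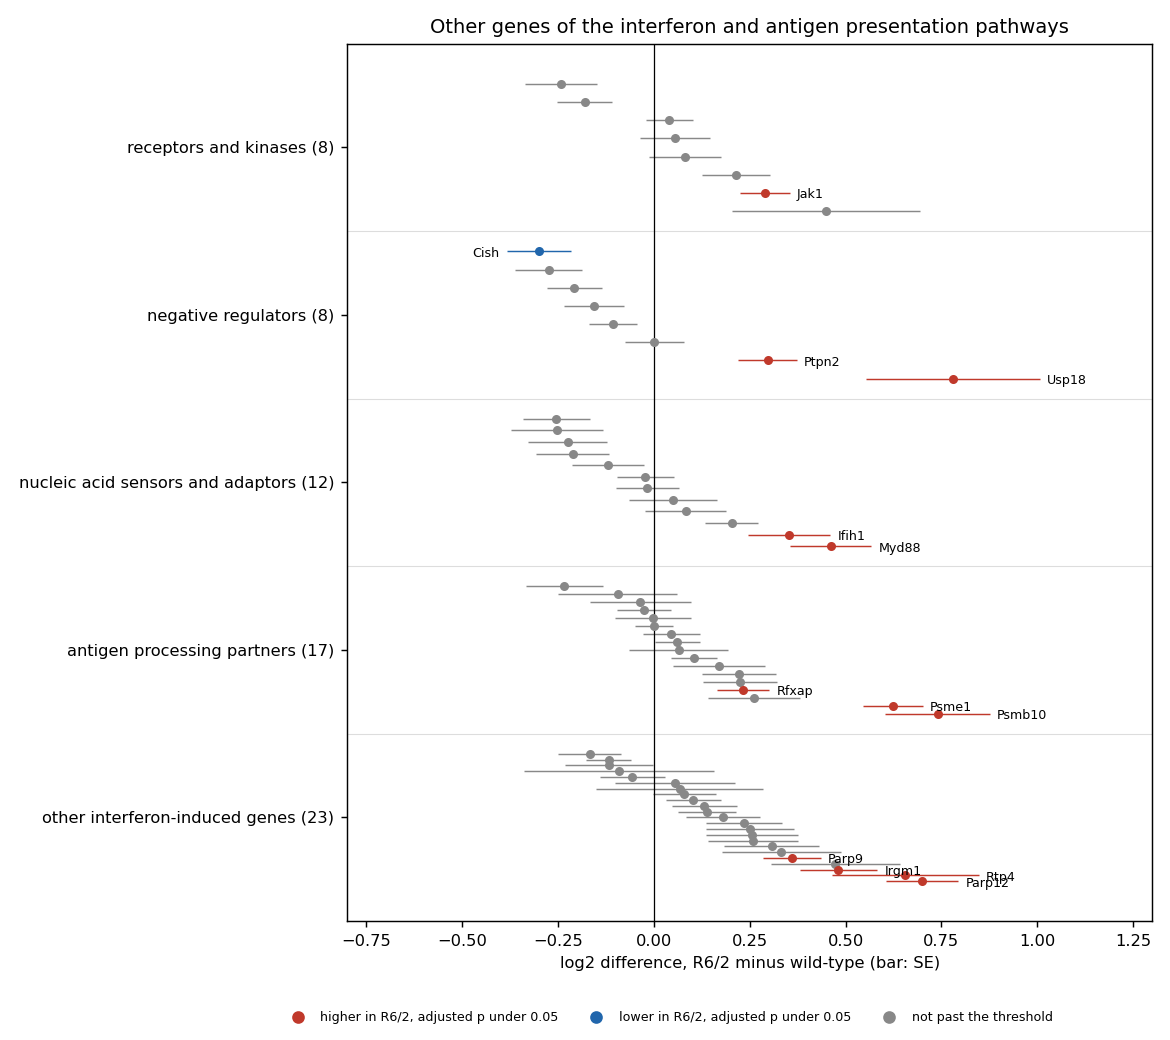
Log2 difference, R6/2 minus wild-type, with its standard error, for the 68 other genes of 5 pathway lists, with the number of genes in parentheses. The 12 genes in red are higher in R6/2 and Cish, in blue, is lower.

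**Figure D5:**
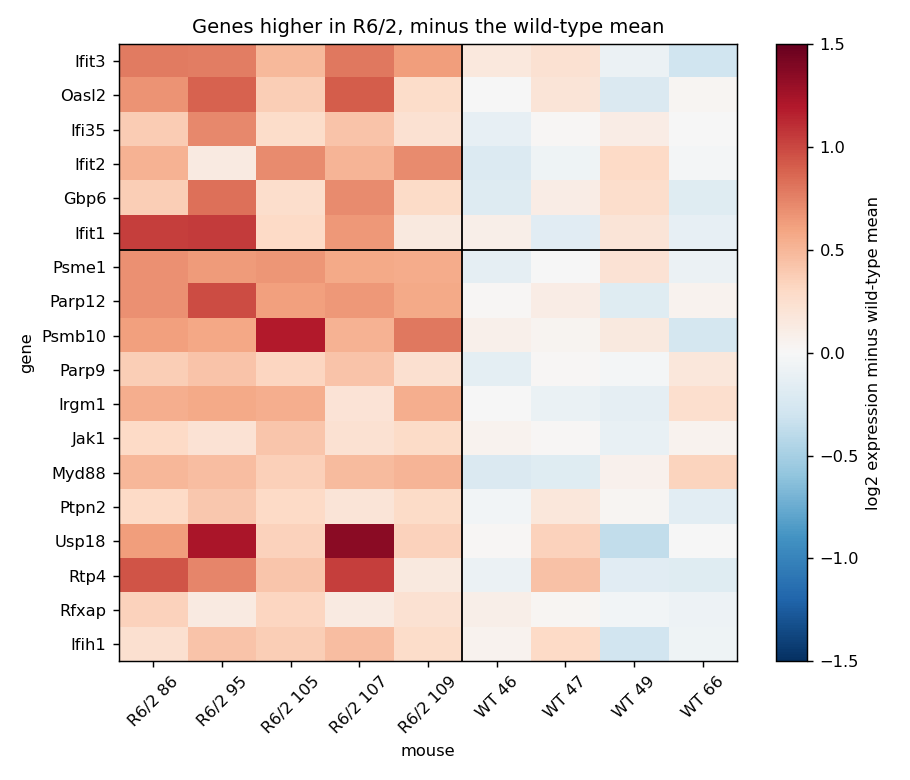
Log2 expression minus the wild-type mean for the 6 higher interferon response genes (above the line) and the 12 higher pathway genes, by mouse, R6/2 left of the line. Usp18 and Oasl2 are highest in R62_95 and R62_107.

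Leaving out 1 mouse at a time kept H2-DMa, Ifit3, Oasl2 and Ifi35 past the threshold in all 9 such fits. The highest limma adjusted p in these fits was 0.0028 for H2-DMa, 0.0092 for Ifit3 and 0.0333 for Oasl2. For Ifi35 it was 0.0499, just under the threshold. Ifit2 lost its call without R62_105 (adjusted p = 0.0542), R62_109 (0.0555), wt_46 (0.0598), wt_47 (0.0615) or wt_66 (0.0567), Gbp6 without R62_86 (0.0538), R62_95 (0.0620), R62_107 (0.0752), wt_46 (0.0908), wt_47 (0.0590) or wt_66 (0.0985), and Ifit1 without R62_86 (0.0850), R62_95 (0.0725), R62_107 (0.0697), wt_46 (0.0632), wt_47 (0.105) or wt_66 (0.0971). H2-Ke6 kept its call only without R62_95 or wt_46 and lost it without R62_86 (0.0610), R62_105 (0.0930), R62_107 (0.0592), R62_109 (0.0928), wt_47 (0.0781), wt_49 (0.0987) or wt_66 (0.09998). Irf8 kept its call only without wt_46, with adjusted p from 0.0634 without R62_107 to 0.118 without wt_66 in the other 8 fits.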

How the data were processed

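Striatal RNA of 9 mice was hybridised to 1 array each. The deposited values are log2 expression of 45101 probe sets, made with RMA of affy per the submitters' processing notes. Tool versions, and the set of arrays that RMA took together, are not stated in the sources used here. RMA gives the arrays a shared distribution, so differences are relative to the other genes of an array, and the number of arrays limits the precision. Array medians were 5.37 to 5.45, and each array was 1 replicate; nothing in the labels says more than that the mice are separate animals.

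From these values limma 3.58.1 in R 4.3.3 (lmFit and eBayes, genotype only, two-sided) was fitted to 18193 genes, 1 probe set each, and adjusted by Benjamini-Hochberg. Gene names came from the platform annotation of the probe sets; 34945 had 1 gene, 932 several and were left out of the fit, and 64 controls were left out. All 86 symbols matched RefSeq. Named were every gene past the threshold, in each role group the brightest and the 2 of smallest p, a few fixed regulators and MHC genes, any gene spanning over 2 log2 units within a genotype, and in each pathway list up to 3 of smallest p. Members and lists were chosen with earlier results of these data known. Tested on simulated data with 18193 genes, the fit recovered 74.6% of 67 genes changed by 0.5 log2, 92.5% of 67 changed by 1 and 100% of 66 changed by 2, with 6.32% of calls false. The simulated noise was normal and independent between genes and mice. It held no age or tissue differences, so these rates may not hold for the real arrays. Alternatives covered thresholds, summarising of probe sets, scaling, covariates and left-out arrays. The marker and pathway lists are scored as the mean log2 level of their genes.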

Additional observations from a re-analysis of the deposited data

Results flagged for a closer look

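In 48 named genes, 96 groups of mice were examined for a mouse far from the others of its genotype. Chance alone marks about 1 group in 20, and 11 of the 96 groups held such a mouse. The genes were named partly for small p or wide spread and share the same mice, so this count cannot show an excess. H2-D1 was 6.36 in R62_86, against 8.10 to 8.75 in the other R6/2 mice, and 6.14 in wt_47, against 7.83 to 8.10 in the other wild-type mice. Irf3 was 7.92 in R62_95 and 7.42 to 7.56 in the other R6/2 mice. Irf7 was 3.96 in wt_46 and 4.42 to 4.44 in the other wild-type mice. H2-M9 was 3.37 in R62_107 and Irf2bpl 8.39 in R62_105, both below the other R6/2 mice. Cish was 6.29 in R62_95 and Myd88 5.25 in R62_105, each the lowest R6/2 mouse. Parp12 was 6.88 in R62_95, the highest R6/2 mouse, and Irgm1 6.49 in R62_107, the lowest. Jak1 was 9.34 in wt_49, the lowest wild-type mouse.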

How the results depend on the processing

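No paired analysis was possible because the mouse numbers are not shared between genotypes. Counts of interferon response and MHC genes higher and lower, then of pathway genes higher and lower, were 6, 3, 12 and 1 in the reported fit. They were 1, 1, 5 and 0 at a threshold of 0.01, 9, 3, 14 and 4 at 0.1, and 0, 0, 0 and 0 with age as a covariate (30 genes passed in all). The microglia level as a covariate gave 0, 0, 1 and 0, the cortex level 1, 1, 4 and 0, and the choroid plexus level 3, 1, 11 and 0. Leaving out the 3 arrays richest in choroid plexus markers gave 1, 1, 6 and 0, and the brighter 50% of genes, with 17 and 28 tested, 1, 2, 6 and 1. Every probe set on its own gave 4, 1, 10 and 1, averaging the probe sets of each gene 4, 2, 12 and 1, no moderation 1, 1, 8 and 0, array weights 7, 3, 9 and 3, quantile normalization 8, 2, 12 and 2, median centring 6, 3, 10 and 2, and trend with robust eBayes 6, 3, 11 and 2. Without R62_86 and wt_47, added after seeing the data, they were 2, 1, 5 and 0. Centring on 6 housekeeping genes put the median difference over all genes at -0.15, gave 495 higher and 2510 lower calls against 1688 and 1378, and gave 2, 5, 3 and 7; Ifit3, Oasl2, H2-DMa, H2-Ke6 and Irf8 stayed past the threshold. Leaving out 1 mouse gave 3 to 6 higher and 1 to 4 lower genes, and 8 to 12 and 0 to 3 pathway genes. The higher count was 3 without wt_47 or wt_66, and the lower count was 4 without wt_46, 2 without R62_95 and 1 without any other mouse. Ptpn2 was the only named gene to turn after a call, to -0.0746 with the mean of its probe sets (adjusted p = 0.482); the cause was not tested. Of 1222 pairs of a named gene and an alternative, 1003 kept their side of the threshold, 205 lost it and 13 gained it. Dim signal limits 27 of the 86 genes, with means in the lowest 25% of genes.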
